A study of Homo sapiens with 6 samples.

Results

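The 38 genes described here encode the regulators NRF2 and KEAP1 and antioxidant and xenobiotic-metabolizing enzymes and pumps assigned to the NRF2 pathway. Control of each gene by NRF2 was not tested. They were chosen by name for their place in the pathway, with earlier results of these data known, and all 38 were found among the 24846 genes of the table and among the 19318 genes with enough reads to test. RNA-seq was performed on A549, a human lung adenocarcinoma epithelial cell line labelled as wild type, in 3 ACC cultures and 3 control cultures. ACC is amorphous calcium carbonate. The ACC cells grew for 8 passages in DMEM/F12 depleted of calcium and supplemented with ACC at 2 mM elemental calcium, and the control cells grew for 8 passages in regular DMEM/F12. Both media contained fetal bovine serum and antibiotics. Per the study's methods, the ACC suspensions were stabilized with sodium tripolyphosphate. The study reports that ACC raised the pH of acidified medium, and the pH of these cultures is not given. The source of the calcium, its amount, the carbonate and the stabilizer all set the groups apart, and their effects cannot be told apart. A549 is a single line, and the sources used here leave unclear whether each culture was carried through its passages separately, so the p-values measure the spread between these samples, part of which may be technical.

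NRF2, encoded by NFE2L2, is a transcription factor that KEAP1 binds and hands over for degradation in unstressed cells. Oxidants and electrophiles modify KEAP1, NRF2 then accumulates, pairs with a small MAF protein and binds antioxidant response elements near genes for glutathione synthesis, NADPH supply, carbonyl and quinone reduction, conjugation and export. A549 cells carry a mutant KEAP1, and NRF2 target genes are known to be highly expressed in this line without any added stress.

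The libraries held 21771645 to 24805486 reads in genes. Values are normalized counts, the reads of a gene divided by the authors' size factor of its library, and a fold change is the difference of the mean log2(normalized count + 1), ACC minus control. Mitochondrial genes took 4.39% to 5.70% of the reads in the ACC libraries and 4.04% to 4.29% in the control libraries, and the part of this in the results was not tested beyond another scaling. With library totals that leave out the mitochondrial genes as the scaling, the counts of members given in the next paragraph did not change. All 5 epithelial markers (EPCAM, CDH1, KRT8, KRT18 and KRT19) reached 30 reads, and their summed level was 102816 to 107629 in the ACC cultures and 128959.6 to 130353.6 in the control cultures. The abundant keratins KRT8 and KRT18 carry this sum and were lower with ACC (log2 fold changes -0.31 and -0.42), while CDH1 (1.10), KRT19 (0.64) and EPCAM (0.62) were higher, all 5 without overlap. Markers of other cells were near 0. The fibroblast list summed to 8.7 to 16.4 in ACC and 38 to 52.4 in control, the endothelial list to 8.7 to 14.3 in ACC and 1.9 to 4.4 in control, and the leukocyte list to 6.5 to 10.2 in ACC and 1.8 to 4.8 in control, with CD3E at 0 throughout. The alveolar type 2 list, of which 2 of 4 genes are in the table, summed to 0.0 to 1.0 in ACC and was at 0 in control. The part of these marker levels in the results was not tested.

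Most of the NRF2 genes were higher in ACC-treated cells. At an adjusted p of 0.05 or less (limma, Benjamini-Hochberg over all genes tested), 28 of the 38 members were higher and 4 were lower with ACC, while 21.3% of all genes tested were higher and 21.9% lower. All 38 members reached 30 reads in 1 library. Of all genes that did, 27.2% were higher and 28.3% lower. The 4 lower calls (AKR1B1, GSTM3, PRDX1 and ALDH1A1) came down to 1 without ACC replicate 2, to 2 without ACC replicate 3 and to 2 without control replicate 1. The median log2 fold change of the members was 0.28, and that of all genes tested was 0.0001. The rises were mostly small. When 30 reads in 1 library and a 2-fold difference were required as well, 4 members were called higher (GPX2, AKR1C1, EPHX1 and ADH6), against 2.77% of all genes, and 0 members were called lower, against 2.24% of all genes. The lowest member log2 fold change was -0.31, so 0 were lower by 2-fold at an unadjusted p of 0.05 as well, and edgeR and DESeq2 on the recovered reads also called 0 lower. OSGIN1, with a log2 fold change of 0.91, came nearest to 2-fold among the others. The ACC and control values did not overlap for 29 members that were higher and 4 that were lower. Over all genes, 25.5% did not overlap in the higher direction and 25.9% in the lower. Of the 13860 genes with 30 reads in 1 library, 4296 did not overlap in the higher direction and 4432 in the lower. The 38 genes took 4.18%, 4.01% and 4.11% of the reads in genes in the ACC libraries, against 3.35%, 3.37% and 3.24% in the control libraries. These are bulk RNA samples, in which a change in the number of cells that express a gene and a change in the RNA per cell cannot be told apart.

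**Figure D1:**
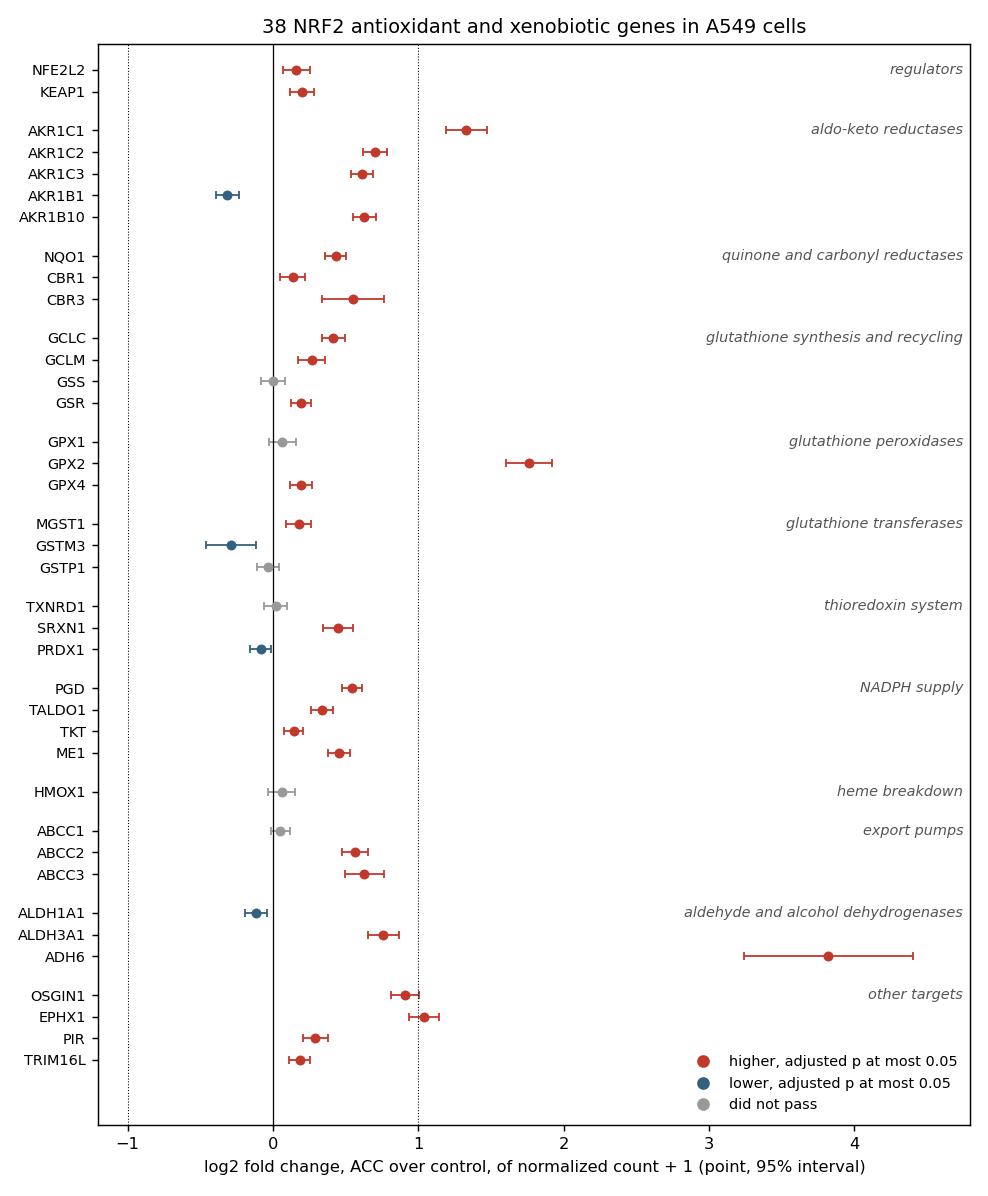
Log2 fold change, ACC over control, of the normalized count + 1 for the 38 NRF2 genes by role, with points for the estimate, bars for the 95% confidence interval (n = 3 each) and dotted lines at a 2-fold change. ADH6 at 3.82 and GPX2 at 1.76 stand furthest to the right, and AKR1B1 at -0.31 is the furthest to the left.

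To show what the promoters of genes with different responses look like, the stretch before the start of 6 members is printed here, 4 that rose (GPX2, EPHX1, ME1 and GCLM) and 2 that did not pass the test (GSTP1 and TXNRD1). Each holds 1 whole match to the core of the antioxidant response element, TGACNNNGC, searched on both strands. The 6 were picked among members with such a match. Matches that cross or follow the start are left unmarked, at -8 in TXNRD1 and at 12 in ME1. Another start of TXNRD1 has a match at -102. Where the 3 free bases are TCA, as in ME1 and GSTP1, the match also holds the letters TGACTCA that AP-1 factors bind. The sequences are from RefSeq on GRCh38.p14, run 5′ to 3′ on the strand of the gene over the 250 bases before its start, and capitals mark the match. They lie at chr14:64942746-64942995 (GPX2, minus strand), chr1:225825104-225825353 (EPHX1, plus strand, before the start used there among several of the gene), chr6:83431052-83431301 (ME1, minus), chr1:93909431-93909680 (GCLM, minus), chr11:67583562-67583811 (GSTP1, plus) and chr12:104215529-104215778 (TXNRD1, plus). In GPX2 and GCLM the core reads on the other strand, so the capitals show its reverse complement.
GPX2: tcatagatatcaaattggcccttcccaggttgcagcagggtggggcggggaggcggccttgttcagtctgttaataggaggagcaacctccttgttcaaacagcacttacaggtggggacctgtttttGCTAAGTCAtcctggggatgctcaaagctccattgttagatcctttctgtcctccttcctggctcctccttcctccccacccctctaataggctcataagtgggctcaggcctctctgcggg
EPHX1: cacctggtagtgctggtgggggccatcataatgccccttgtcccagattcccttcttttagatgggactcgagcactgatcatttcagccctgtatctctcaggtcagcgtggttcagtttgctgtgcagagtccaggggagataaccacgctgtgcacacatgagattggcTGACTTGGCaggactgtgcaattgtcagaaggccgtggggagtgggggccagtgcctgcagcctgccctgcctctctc
ME1: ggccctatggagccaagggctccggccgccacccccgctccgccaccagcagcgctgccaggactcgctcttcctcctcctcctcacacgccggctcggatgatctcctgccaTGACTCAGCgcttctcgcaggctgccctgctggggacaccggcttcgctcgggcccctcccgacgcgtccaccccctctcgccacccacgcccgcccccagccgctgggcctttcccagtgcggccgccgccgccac
GCLM: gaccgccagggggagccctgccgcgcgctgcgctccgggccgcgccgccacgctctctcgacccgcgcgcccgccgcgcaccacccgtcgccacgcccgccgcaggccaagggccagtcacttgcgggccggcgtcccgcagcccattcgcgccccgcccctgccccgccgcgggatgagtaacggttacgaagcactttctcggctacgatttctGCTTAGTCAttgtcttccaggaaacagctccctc
GSTP1: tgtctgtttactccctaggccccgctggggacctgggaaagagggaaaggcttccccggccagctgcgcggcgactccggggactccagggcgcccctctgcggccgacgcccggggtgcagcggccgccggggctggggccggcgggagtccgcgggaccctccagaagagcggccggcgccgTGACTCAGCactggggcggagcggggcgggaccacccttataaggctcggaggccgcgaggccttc
TXNRD1: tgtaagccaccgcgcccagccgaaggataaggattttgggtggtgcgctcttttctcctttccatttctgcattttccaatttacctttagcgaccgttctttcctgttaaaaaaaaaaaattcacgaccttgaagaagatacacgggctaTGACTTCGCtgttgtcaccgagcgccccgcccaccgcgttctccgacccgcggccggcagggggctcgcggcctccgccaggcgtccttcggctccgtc

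The match begins at -122 from the start in GPX2, at -78 in EPHX1, at -137 in ME1, at -34 in GCLM, at -66 in GSTP1 and at -99 in TXNRD1. Windows on chromosome 8, where GSR lies, were left out for the members but not for the whole table. Of the other members, 28 had a RefSeq promoter window (250 bases before to 50 bases after a start), 39 windows in all. The core was present in 12 of these 39 windows, from 11 members, which is 30.8% of them, against 13.3% of the 35116 windows of that length in the whole table. The windows of AKR1C1, AKR1C2, AKR1C3, NQO1 and ADH6 held no match, which says only that these letters are not within this short stretch. The core of the xenobiotic response element, GCGTG, to which the aryl hydrocarbon receptor binds, was present in 20 of the 39 windows (51.3%, from 16 members) and in 36.5% of all windows. A match is a run of letters and was not tested as a binding site.

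Both regulators were slightly higher with ACC. NFE2L2 had 2036, 2046 and 2099 normalized counts in the ACC cultures, against 1746, 1921 and 1861 in the control cultures. The lowest ACC culture was above the highest control culture, and the log2 fold change was 0.16 ± 0.043 (SE, n = 3 each, adjusted p = 0.00532 from limma). KEAP1 had 2609, 2576 and 2492 in ACC, against 2257, 2218 and 2205 in control, a log2 fold change of 0.20. It too did not overlap between the groups (adjusted p = 0.000305). These are RNA levels of proteins whose activity is known to be set largely after translation, and no protein was measured here. The call of NFE2L2 was lost in limma without the mean-variance trend (adjusted p = 0.0652).

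The aldo-keto reductases, NADPH-dependent enzymes that reduce aldehydes and ketones, rose in 4 of 5 cases, while AKR1B1 fell. AKR1C1, which inactivates progesterone, had 20355, 21118 and 21367 normalized counts in ACC cultures, against 8484, 9539.6 and 7119 in control cultures. The groups were far apart, and the log2 fold change was 1.33 ± 0.067 (SE, adjusted p = 1.51e-11). AKR1C2, its neighbor on chromosome 10 and an inactivator of dihydrotestosterone, had 66355, 67058 and 66281 in ACC, against 40318, 43635 and 38633 in control (log2 fold change 0.71, adjusted p = 6.4e-11). The ACC cultures lay within a narrow band and above all the controls. AKR1C3, which also makes prostaglandin F, had 50252, 47624 and 48985 in ACC, against 32308, 32927 and 30637 in control, a log2 fold change of 0.62 with no overlap. The 3 genes are close relatives, and how alike each pair is was not measured here. The sources used here do not say how reads that match several of them were counted. The division of reads among them is therefore uncertain, to a degree that can differ between pairs. The ratio of AKR1C1 to AKR1C2 was 0.307, 0.315 and 0.322 in ACC libraries, against 0.210, 0.219 and 0.184 in control libraries, so AKR1C1 rose more than AKR1C2 in the reads as assigned.

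The 2 members of the AKR1B branch moved in opposite directions. AKR1B10, a retinal and lipid-aldehyde reductase often high in lung cancers of smokers, had 84529, 76815 and 83826 normalized counts in ACC, against 51997, 52687 and 53530 in control. The gap between the groups exceeded the spread within either, and its log2 fold change was 0.63 (adjusted p = 1.83e-10). AKR1B1, the aldose reductase that turns glucose into sorbitol, had 15589, 14433 and 15012 in ACC, against 18431, 18107 and 19434 in control. All ACC cultures were below all control cultures, and the log2 fold change was -0.31 ± 0.037 (SE, adjusted p = 1.49e-06). Their ratio, AKR1B10 over AKR1B1, was 5.42, 5.32 and 5.58 in ACC libraries and 2.82, 2.91 and 2.75 in control libraries. AKR1B15, a close copy of AKR1B10 from the further lists of related genes, rose by a log2 fold change of 0.64. Reads of the copies could have been exchanged in counting.

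**Figure D2:**
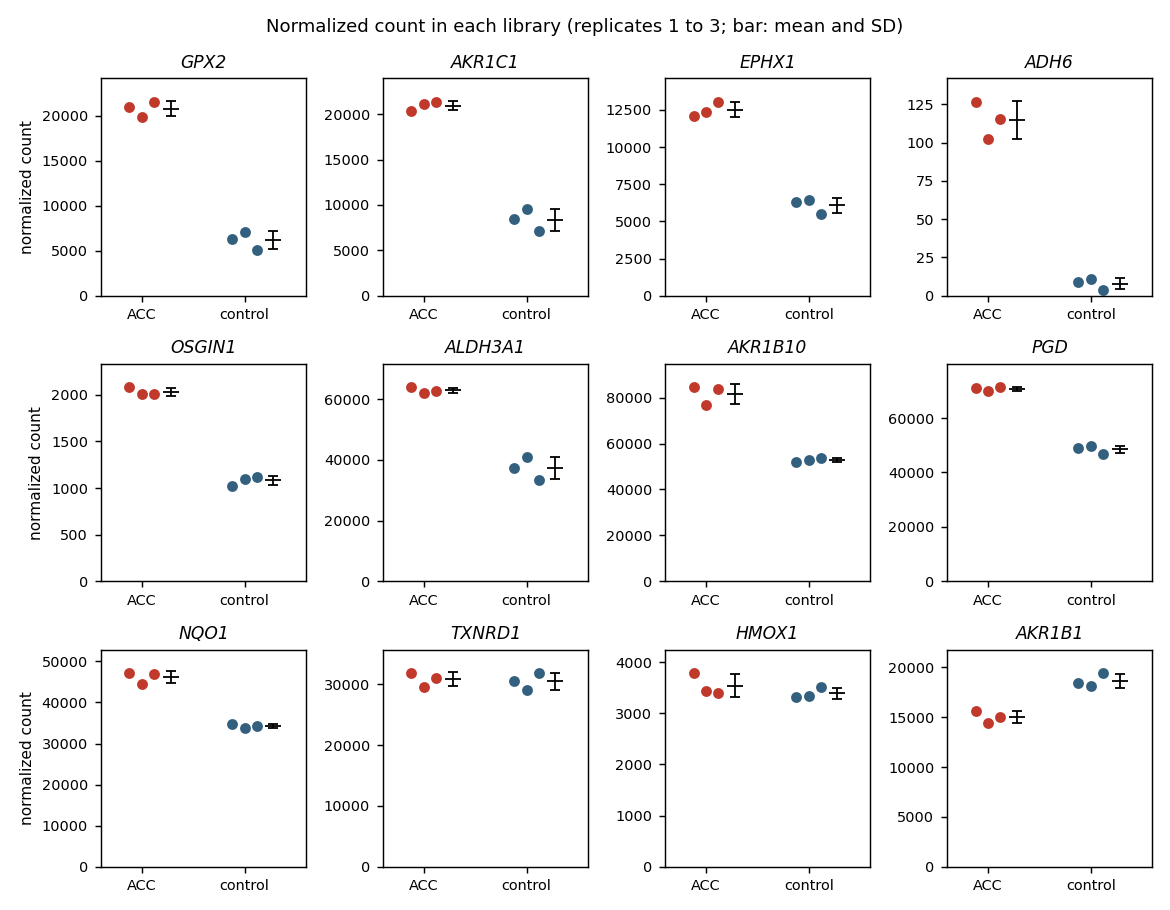
Normalized counts of selected NRF2 genes in each library, with points for the libraries, ACC left of control, and black marks with bars for the group mean and SD (n = 3 each). GPX2 lay between 19849 and 21556 in the ACC cultures and between 5113 and 7084 in the control cultures, while TXNRD1 and HMOX1 overlapped.

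The quinone and carbonyl reductases all rose, to different degrees. NQO1, the quinone reductase most used as a readout of NRF2, had 47194, 44408 and 46878 normalized counts in ACC, against 34667, 33742 and 34226 in control. The groups stood well apart, with a log2 fold change of 0.43 ± 0.034 (SE, adjusted p = 6.48e-09). The carbonyl reductase CBR3 was the less abundant of the pair on chromosome 21, with 181.7, 177.2 and 158.6 in ACC, against 122.4, 116.5 and 113.0 in control (log2 fold change 0.55, adjusted p = 0.000216). CBR1, its more abundant neighbor, averaged 2685 ± 123 in ACC and 2439 ± 31.3 in control (SD, n = 3 each), a log2 fold change of 0.14. The groups of CBR1 did not overlap, but its call was lost in 4 of 18 alternatives, among them those without ACC replicate 1 (adjusted p = 0.0675) and ACC replicate 3 (0.0515).

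In glutathione synthesis, both subunits of the rate-limiting ligase rose and the second enzyme did not pass the test. GCLC, the catalytic subunit, had 5985, 5648 and 5865 normalized counts in ACC, against 4388, 4206 and 4519 in control. There was no overlap, and the log2 fold change was 0.42 ± 0.038 (SE, adjusted p = 5.07e-08). GCLM, the modifier subunit whose promoter is printed with the sequences, had 6213, 5583 and 5598 in ACC, against 4784, 4659 and 5007 in control (log2 fold change 0.27, adjusted p = 6.04e-05). The ACC cultures were again all higher. The ratio of GCLM to GCLC was 1.04, 0.989 and 0.955 in ACC libraries, below the 1.09, 1.11 and 1.11 of the control libraries. GSS, which adds glycine to complete glutathione, averaged 1946 ± 37.8 in ACC and 1946 ± 9.09 in control (SD, n = 3 each). Its 95% interval for the log2 fold change ran from -0.082 to 0.082, and its sign turned under some scalings and when single libraries were left out. GSR, the reductase that restores oxidized glutathione, averaged 9281 ± 152 in ACC and 8110 ± 135 in control, a log2 fold change of 0.19 (adjusted p = 8.51e-05).

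GPX2 had the highest fold change of the members apart from the low-count ADH6. It encodes a glutathione peroxidase known best from the lining of the gut, lies on chromosome 14 (64939152 to 64942746, minus strand, GRCh38) and had 20947, 19849 and 21556 normalized counts in ACC cultures, against 6317, 7084 and 5113 in control cultures. The lowest ACC culture held more than the 3 control cultures together. Its log2 fold change was 1.76 ± 0.075 (SE, n = 3 each, adjusted p = 1.43e-12 from limma), a 3.40-fold rise. GPX4, which protects membranes from lipid peroxides, averaged 3874 ± 70.1 in ACC and 3387 ± 74.7 in control (SD), a log2 fold change of 0.19 with no overlap. GPX1, the general cytosolic peroxidase, had 1774, 1644 and 1755 in ACC, against 1634, 1692 and 1617 in control. The GPX1 groups overlapped, and its log2 fold change of 0.07 did not pass (adjusted p = 0.254). The ratio of GPX2 to GPX4 was 5.31, 5.22 and 5.56 in ACC libraries, against 1.91, 2.07 and 1.49 in control libraries.

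The glutathione transferases, which attach glutathione to electrophiles, showed no common direction. MGST1, a microsomal transferase and peroxidase, averaged 11117 ± 132 normalized counts in ACC and 9851 ± 708 in control (SD, n = 3 each), a log2 fold change of 0.18. Control culture 2, at 10669, came close to the lowest ACC culture at 10967. GSTM3 had 274.8, 228.3 and 247.6 in ACC, against 304.5, 315.6 and 293.4 in control, a log2 fold change of -0.29 (adjusted p = 0.00822). The groups did not overlap, and without ACC replicate 2 the log2 fold change was -0.22 and no longer passed (adjusted p = 0.0529). GSTP1, the main transferase of many tumors, averaged 13870.5 ± 494 in ACC and 14192 ± 253 in control and overlapped between the groups (log2 fold change -0.03, adjusted p = 0.474). GSTP1 thus holds the same core letters in its promoter as ME1 but did not pass the test.

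Of the 3 genes of the thioredoxin system, SRXN1 rose, PRDX1 was slightly lower and TXNRD1 did not pass. SRXN1, which repairs overoxidized peroxiredoxins, had 1652, 1586 and 1625 normalized counts in ACC, against 1148, 1152 and 1267 in control (log2 fold change 0.45, adjusted p = 3.76e-07). No control culture reached the ACC range. TXNRD1, the thioredoxin reductase of the cytosol, had 31869, 29576 and 31055 in ACC, against 30484, 29021 and 31842 in control. The cultures of the groups were interleaved, and the log2 fold change was 0.02 with a 95% interval from -0.063 to 0.10 (adjusted p = 0.743). PRDX1, an abundant peroxiredoxin, had 20427, 19295 and 19329.7 in ACC, against 21074, 20639.5 and 20892 in control. All ACC cultures were below the controls by a small margin, a log2 fold change of -0.08 with an adjusted p of 0.0476. This call was lost in 11 of 18 alternatives, where the adjusted p reached 0.194, among them the count tests of edgeR (0.0688) and DESeq2 (0.0787). The fits without ACC replicate 2 (0.137), ACC replicate 3 (0.187), control replicate 1 (0.130) and control replicate 2 (0.0671) also lost it.

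All 4 members grouped under NADPH supply rose. PGD, the second NADPH-forming step of the pentose phosphate pathway, had 71037, 69922 and 71337 normalized counts in ACC, against 48963, 49618 and 46907 in control. The groups were far apart relative to their spread, with a log2 fold change of 0.55 ± 0.033 (SE, adjusted p = 2.14e-10). ME1, the cytosolic malic enzyme, had 4261, 4155 and 4284 in ACC, against 3041, 3072 and 3139 in control (log2 fold change 0.46, adjusted p = 6.28e-09). TALDO1 and TKT, the transaldolase and transketolase that rearrange the sugars of the pathway, rose less. TALDO1 averaged 9424 ± 294 in ACC and 7457 ± 171 in control (SD, n = 3 each), a log2 fold change of 0.34. TKT averaged 71512 ± 545 in ACC and 64708 ± 305 in control, a log2 fold change of 0.14. Together the 4 genes took 0.707%, 0.697% and 0.703% of the reads in ACC libraries, against 0.567%, 0.567% and 0.547% in control libraries.

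HMOX1, the heme oxygenase that frees iron and biliverdin from heme, did not follow NQO1. It had 3791, 3445 and 3389 normalized counts in ACC, against 3318, 3343 and 3515 in control. Only ACC culture 1 lay outside the control range, and the log2 fold change was 0.06 with a 95% interval from -0.032 to 0.154 (adjusted p = 0.292). The ratio of NQO1 to HMOX1 was 12.5, 12.9 and 13.8 in ACC libraries, against 10.5, 10.1 and 9.74 in control libraries.

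Of the export pumps for glutathione conjugates, ABCC2 and ABCC3 rose and ABCC1 did not pass. ABCC3, known from the basolateral side of hepatocytes, had 29497, 31263 and 30922 normalized counts in ACC, against 21497, 21210 and 16915 in control. Control culture 3 was far below the other controls. The log2 fold change was 0.63 ± 0.063 (SE, adjusted p = 1.85e-07), and it was 0.52 without that culture. ABCC2, the canalicular pump of hepatocytes, had 9179, 10248 and 9633 in ACC, against 6799, 6551 and 6265 in control (log2 fold change 0.57, adjusted p = 3.14e-09). ABCC1, the broadly expressed member of the family, had 9663, 9558 and 9869 in ACC, against 9340, 9382 and 9350.2 in control. Its groups did not overlap, but the log2 fold change was 0.05 and the adjusted p 0.215.

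**Figure D3:**
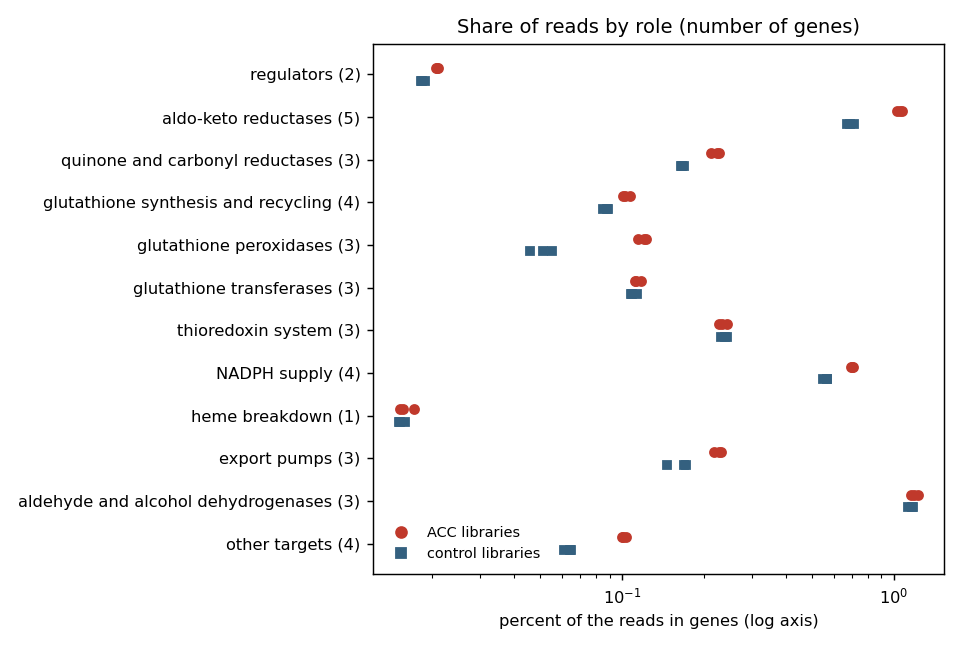
Percent of the reads in genes taken by each role group of the NRF2 genes in each library, on a log axis, with points for the libraries and ACC beside control (n = 3 each). The glutathione peroxidases took 0.114% to 0.122% in ACC libraries and 0.0457% to 0.0553% in control libraries, and the thioredoxin system overlapped between the groups.

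The aldehyde and alcohol dehydrogenases held both the most and the least abundant members. ALDH3A1, which oxidizes aromatic and lipid aldehydes, had 63878, 62108 and 62615 normalized counts in ACC, against 37371, 40865 and 33443 in control (log2 fold change 0.76 ± 0.051, SE, adjusted p = 7.97e-10). The controls were spread more widely than the ACC cultures and lay below all of them. ALDH1A1, the retinal dehydrogenase, had 209234, 192898 and 201679 in ACC, against 218323, 219125 and 217067 in control. The ACC cultures were all below the controls, and its log2 fold change was -0.12 (adjusted p = 0.0144). This call was lost in 5 of 18 alternatives, among them the fits without ACC replicate 2 (adjusted p = 0.0538), without ACC replicate 3 (0.0598) and without control replicate 1 (0.0569). The ratio of ALDH3A1 to ALDH1A1 was 0.305, 0.322 and 0.311 in ACC libraries, against 0.171, 0.187 and 0.154 in control libraries.

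ADH6, an alcohol dehydrogenase known mainly from the liver, had 126.7, 102.1 and 115.6 normalized counts in ACC, against 8.67, 10.7 and 3.80 in control. In control cultures it was close to the limit of detection, and every ACC culture was far above. The log2 fold change was 3.82 ± 0.28 (SE, adjusted p = 2.39e-09), and with pseudocounts, scalings and libraries varied it lay between 3.27 and 4.08. Its size rests on a few reads per control library. Although it had the highest fold change, ADH6 took the smallest share of the members' reads.

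The remaining 4 members all rose. EPHX1, the microsomal epoxide hydrolase, had 12059.5, 12380.3 and 13052 normalized counts in ACC, against 6323, 6413 and 5509.8 in control. The lowest ACC value was well above the highest control value, and the log2 fold change was 1.04 ± 0.049 (SE, adjusted p = 5.06e-12). Without control replicate 3 it was 0.97, which is below 2-fold, so that 3 members were then called higher and not 4. OSGIN1, a stress-induced gene tied to growth inhibition, had 2080, 2004 and 2010.1 in ACC, against 1021, 1102 and 1121 in control (log2 fold change 0.91, adjusted p = 1.48e-11). PIR, the iron-binding protein pirin encoded on the X chromosome, averaged 2324 ± 33.7 in ACC and 1897 ± 77.0 in control (SD, n = 3 each), a log2 fold change of 0.29. TRIM16L, a shortened copy of TRIM16 with which it can share reads, averaged 5604 ± 76.8 in ACC and 4933 ± 151 in control, a log2 fold change of 0.18. Neither PIR nor TRIM16L overlapped between the groups.

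Levels can be set beside each other only per length of transcript, here the Ensembl canonical transcript, which need not be the one A549 uses. On that scale ALDH1A1 was the most abundant member in both groups, with 96026 normalized counts per kilobase in ACC and 104089.5 in control, followed by AKR1B10 with 50477 in ACC and 32575 in control. AKR1C3 reached 41276 per kilobase in ACC and 26946 in control, and ALDH3A1 reached 38357 in ACC and 22713 in control. GPX2 reached 22542 per kilobase in ACC and 6694 in control, which put it above PRDX1 (20829 in ACC and 22083 in control) in ACC-treated cells only. NFE2L2 itself had 842 per kilobase in ACC and 753 in control, and ADH6 had 41.0 in ACC and 2.75 in control. The members that rose thus included both abundant and scarce transcripts.

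Several members with high fold changes varied more among the control cultures than among the ACC cultures. GPX2 had a coefficient of variation of 4.16% in ACC cultures and 16.1% in control cultures, AKR1C1 of 2.52% in ACC and 14.5% in control, and ABCC3 of 3.07% in ACC and 12.9% in control. Control culture 3 was the lowest control for all 4 members called at 2-fold. It was also the lowest for 10 of the 12 members with a log2 fold change of at least 0.5 and a control mean of at least 100, a choice made after the values were seen, with AKR1B10 and OSGIN1 lowest in control culture 1. Over all genes with a control mean of at least 100, culture 3 was the lowest control for 33.5% of 11124, and among those called higher with ACC it was the lowest for 159 of 205, or 77.6%. Without control culture 3, the log2 fold change was 1.63 for GPX2, 1.22 for AKR1C1, 0.69 for ALDH3A1 and 3.44 for ADH6, and still 28 members were higher and 4 lower.

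Other genes related to the pathway were also higher with ACC more often than lower. A further 142 genes were listed from general knowledge, again with earlier results of these data known, so their counts are not independent evidence of a direction. They were listed by related function and not all as NRF2 targets, and their control by NRF2 was not tested. Of these, 136 could be tested, and 76 were higher and 19 lower with ACC at the adjusted p of 0.05 (21.3% and 21.9% of all genes), with a median log2 fold change of 0.23. At 2-fold, 14 were called higher and 1 lower (2.77% and 2.24% of all genes), the lower being GGT5, of the gamma-glutamyltransferase family.

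Among the 13 other regulators, 4 rose and 4 fell, 30.8% each way, which is near the 21.3% and 21.9% of all genes, and the median log2 fold change was 0.0054. SQSTM1, the autophagy receptor p62 that sequesters KEAP1, had 19407, 19333 and 20268 normalized counts in ACC, against 10648, 10822 and 11849 in control (log2 fold change 0.83, adjusted p = 7.3e-12). The small MAF gene MAFG rose by 0.33 and the NRF2 relative NFE2L1 by 0.27 on the log2 scale. NFE2L3, a further relative, was lower, and its log2 fold change was -0.51 (adjusted p = 1e-05). Of the other small MAF genes, MAFK was lower (log2 fold change -0.35) and MAFF did not pass (0.17). BACH1 rose as well (0.36), and CUL3 was lower (-0.32).

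Of 22 other glutathione genes, 15 rose and 3 fell (68.2% and 13.6%, against 21.3% and 21.9% of all genes). CHAC1, which breaks glutathione down, had 379.2, 388.2 and 394.9 normalized counts in ACC, against 81.9, 65.8 and 66.5 in control, a log2 fold change of 2.43. The glutaredoxin GLRX rose by 1.09, the glutathione-binding protein LANCL1 by 0.55 and SLC7A11, the cystine importer that feeds glutathione synthesis, by 0.54 on the log2 scale. The rises in this list therefore include a gene for breakdown as well as genes for supply and use. The 3 genes that fell were GGT5 (log2 fold change -1.39), CHAC2, a relative of CHAC1 (-0.41), and GSTO1 (-0.19).

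Of 16 other genes of the thioredoxin and peroxide group, 5 rose and 3 fell (31.2% and 18.8%), again near the shares over all genes (21.3% and 21.9%), with a median log2 fold change of 0.03. TXNIP, an inhibitor of thioredoxin that is known to respond to glucose, had 478.9, 564.4 and 567.7 normalized counts in ACC, against 14.5, 5.33 and 11.4 in control (log2 fold change 5.65, adjusted p = 7.81e-13). Every ACC culture was above every control by a wide margin. The stress-induced sestrin SESN2 rose by 0.55 and the peroxiredoxin PRDX5 by 0.18. SOD2, the mitochondrial superoxide dismutase, was lower (log2 fold change -0.20, adjusted p = 0.00289). The sestrin SESN1 (-0.30) and the peroxiredoxin PRDX6 (-0.11) were lower as well, and the sestrin SESN3 rose (0.30), so neither family had a common direction. The thioredoxin gene TXN, named after its values were seen, had a log2 fold change of 0.05 and did not pass (adjusted p = 0.306), but did without control replicate 3 (0.0373).

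In the other NADPH genes, 5 of 12 rose and 4 fell (41.7% and 33.3%, against 21.3% and 21.9% of all genes), with a median log2 fold change of -0.10. The mitochondrial folate enzyme ALDH1L2 rose by 1.6 and the cytosolic isocitrate dehydrogenase IDH1 by 0.43 on the log2 scale. ME2, the mitochondrial counterpart of ME1, was lower, and its log2 fold change was -0.44 (adjusted p = 2.33e-07). ME1 and ME2 thus moved in opposite directions. RPIA, IDH2 and MTHFD1 were lower too (log2 fold changes -0.47, -0.28 and -0.19), so IDH1 and IDH2 also differed in direction.

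Around HMOX1, 6 of 8 other heme and iron genes rose and 1 fell (75% and 12.5%, against 21.3% and 21.9% of all genes). BLVRB, the biliverdin reductase B, had 6671, 6489.7 and 6746 normalized counts in ACC, against 3566, 3602 and 3582 in control, a log2 fold change of 0.89 (adjusted p = 3.35e-13). The ferritin light chain FTL rose by 0.61 and the heavy chain FTH1 by 0.43 on the log2 scale, both with many near-identical pseudogenes that can take their reads. ABCB6, a porphyrin transporter, rose by 0.67.

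Beside each count in this paragraph stand the shares over all genes tested, of which 21.3% rose and 21.9% fell. Of 20 other reductases and dehydrogenases, 12 rose and 2 fell, ALDH1A3 (log2 fold change -0.57) and ALDH1B1 (-0.20). ALDH2, the mitochondrial acetaldehyde dehydrogenase, averaged 6017 in ACC and 2860.1 in control, a log2 fold change of 1.08, and ALDH3B1 and ALDH3A2, relatives of ALDH3A1, rose by 0.51 and 0.43. Of 6 other export pumps, 4 rose and 0 fell, among them ABCG2 (0.49), ABCC4 (0.32), ABCC6 (0.61) and SLC47A1 (0.22). In the list of conjugation and hydrolysis, 6 of 10 rose and 1 fell. CES1, a carboxylesterase of the liver, had 1838, 1882 and 1974 normalized counts in ACC, against 363.3, 432.1 and 268.8 in control, a log2 fold change of 2.44. The soluble epoxide hydrolase EPHX2 rose by 0.60, the sulfotransferase SULT1A1 by 0.85 and UGDH, which makes UDP-glucuronate, by 0.20. Of 14 further genes listed as NRF2 targets, 10 rose and 0 fell, among them TSPAN7 (1.54), NR0B1 (0.85), LRP8 (0.50) and UCHL1 (0.27).

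**Figure D4:**
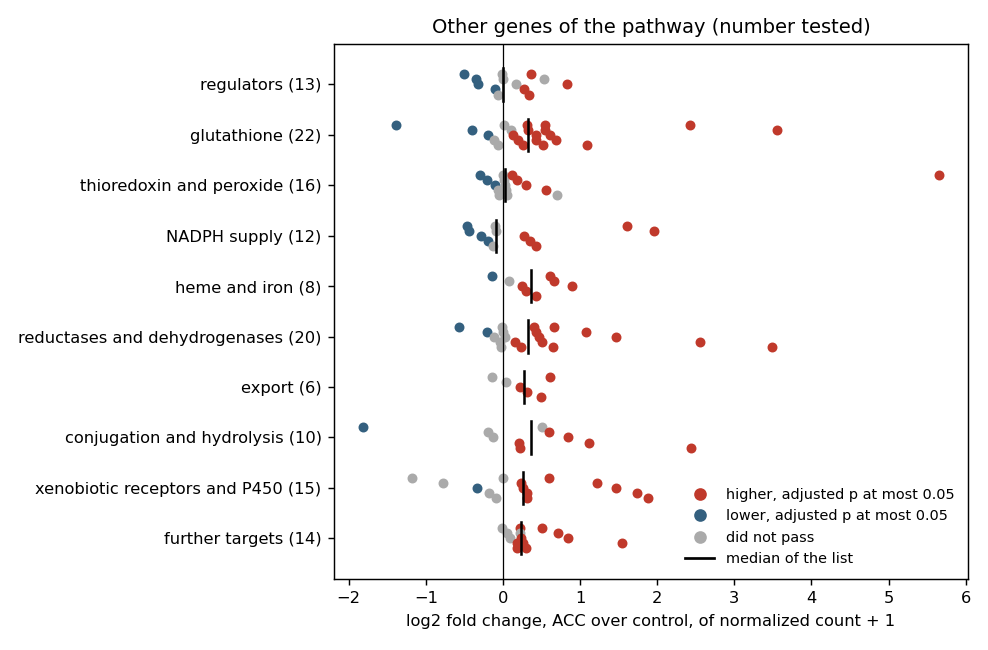
Log2 fold change, ACC over control, of the tested genes in each further list of genes related to the pathway. Each point is a gene, colored by whether it passed the adjusted p of 0.05, and a black line marks the median of the list. The glutathione list has 15 genes higher and 3 lower, and the other regulators have 4 higher and 4 lower. Over all genes tested, 21.3% were higher and 21.9% lower.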

How the data were processed

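RNA from 6 A549 cultures, 3 with ACC and 3 controls, was sequenced from poly-A libraries and grouped by the labels. Per the submitters' processing notes and the study's methods, reads were trimmed (cutadapt), aligned to GRCh38 (STAR 2.4.2a) and counted by gene (HTSeq) on Ensembl release 92. The signal values the authors deposited are those counts divided by DESeq2 size factors. Strand use in counting and the treatment of reads that match several genes are not stated in the sources used here. Overlapping, antisense and closely related genes (AKR1C1, AKR1C2 and AKR1C3, AKR1B10 and AKR1B15, TRIM16L, FTL and FTH1) are uncertain. The fold changes and p-values of the authors' own comparison in the same table were not used.

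All positive values (100%) lay within 0.1 read of a whole multiple of the value of 1 read, so each gene's reads could be recovered. The main test was limma 3.58.1 in R 4.3.3, with its trend option, applied to log2(normalized count + 1) in the 19318 genes whose normalized counts summed to at least 10, with Benjamini-Hochberg adjustment over all of them. A call at 2-fold also needed 30 reads in 1 library, thresholds that the study's methods state. edgeR 4.0.16, run as an alternative on the recovered reads, called 551 genes higher and 430 lower. DESeq2 1.42.0 was a further alternative. The scripts were tested on simulated data. The biological coefficient of variation was 3.77%.

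The members and lists were chosen with earlier results of these data known. All 38 members are named, with up to 4 genes of smallest adjusted p from each further list. Of the genes this selects, 1 is not reported here. MAFK, MAFF, BACH1, CUL3, IDH2, RPIA, MTHFD1, CHAC2, GSTO1, SESN1, SESN3, PRDX6, ALDH1A3, ALDH1B1, GGT5, TXN and TIPARP were named after their values were seen. Of these, only TXN and TIPARP were followed through the alternatives. Other genes that did not pass are given only as counts. Gene coordinates are from GENCODE 44 on GRCh38, and promoters from RefSeq on GRCh38.p14. A protein comparison was planned and not run here. Replicates were compared by chi-square, which averaged 2.47 to 4.87 per gene and exceeded sampling noise, so none was counted as a copy. Alternatives covered scaling, filters, pseudocounts, tests, a replicate block and leaving out each library. Scaling by totals without mitochondrial genes was chosen after seeing the data.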

Additional observations from a re-analysis of the deposited data

How the results depend on the processing

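Of the 38 members, 29 kept their direction and their side of the adjusted p of 0.05 in all 18 alternatives, 7 lost the call in at least 1 (NFE2L2, CBR1, MGST1, GSTM3, PRDX1, TKT and ALDH1A1) and 2 turned in direction (GSS and TXNRD1, neither of which passed). The count of members higher stayed between 25 and 28 and the count called at 2-fold between 3 and 4. The count of members lower, 4, was 1 with no filter on low values, 2 in limma without the trend and 1 to 4 when single libraries were left out, and the cause was not tested. The log2 fold change of GSS, 0.0002, was -0.0069 with library totals as the scaling, -0.0006 with the upper quartile and -0.0136 to 0.0144 when single libraries were left out. That of TXNRD1 was -0.0157 to 0.0512 when single libraries were left out. With no filter, the adjusted p was 0.0829 for MGST1, 0.0593 for TKT and 0.551 for ALDH1A1. Of the 42 other genes selected for naming, 38 kept their side in all alternatives, the exceptions being SOD2, ABCC6, TIPARP and TXN. The deviations of same-numbered libraries from their group means had correlations of -0.125, 0.079 and -0.067. Of the 3 ACC libraries, 1 correlated best with the control of its own number. With 3 libraries per group the deviations constrain each other, so this check cannot decide whether the numbers pair the samples. With a replicate block, 28 members were higher, 3 lower and 4 called, PRDX1 losing its call (adjusted p = 0.0589), and no other member's call changed. The depth limits ADH6, which rests on few control reads.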

Other observations

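Of 15 tested genes for xenobiotic receptors and cytochrome P450 enzymes, 9 rose and 1 fell (21.3% and 21.9% of all genes tested did), with a median log2 fold change of 0.26. The aryl hydrocarbon receptor gene AHR, a sensor of planar aromatic compounds, had 984.8, 942.9 and 998.4 normalized counts in ACC, against 428.9, 443.6 and 379.9 in control (log2 fold change 1.23, adjusted p = 1.61e-11 from limma). All ACC cultures stood above all controls. CYP4F11, a fatty acid hydroxylase encoded on chromosome 19, as is CYP4F3, had 3126, 2831 and 3066 in ACC, against 946.4, 928.2 and 822.4 in control (log2 fold change 1.74, adjusted p = 2.35e-14). CYP4F3, which inactivates leukotriene B, had 1384, 1544 and 1575 in ACC, against 513.7, 436.5 and 298.2 in control, a log2 fold change of 1.88. Control culture 3 was again the lowest for these 2 genes. CYP2S1 averaged 3236 in ACC and 2152 in control, a log2 fold change of 0.59.

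The gene that fell was TIPARP, an ADP-ribosyltransferase, named after its values were seen. It had 539.4, 604.9 and 546.3 normalized counts in ACC, against 683.3, 656.1 and 806.3 in control. All ACC cultures were below all controls, and the log2 fold change was -0.34 (adjusted p = 0.000826). The call of TIPARP was lost with no filter on low values (adjusted p = 0.0630) and in limma without the trend (0.0507).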
